A study of Mus musculus with 48 samples.

Results

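Long clones are those whose T cell receptor β chain has a complementarity-determining region 3 (CDR3) of 16 or more residues. They were chosen by the length of the amino acid sequence alone and made up 118703 of the 959731 deposited clone rows (12.4%). Each library was drawn at random to 6 reads per sorted cell, after which 112181 of 906601 rows were long (12.4%), with 96021 of 700107 distinct sequences (13.7%). Clones with 12 to 15 residues, 749114 rows, were used for comparison.

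The libraries came from 8-week-old female C57BL/6 mice (C57BL/6J in the study's methods) that carried Lewis lung carcinoma (LLC) tumors under the skin on both sides of the back and were sampled at day 13. CD8+ and CD4+ T cells were sorted from each tumor, which was cut into 2 fragments, and from the brachial draining lymph node (dLN) of each side. The 4 groups of libraries came from the same 4 mice, numbered 5 to 8, with 16 libraries each for CD8+ and CD4+ T cells of the tumor and 8 each for those of the dLN. The dLN cells were gated on high CD44, a marker of antigen experience, and the tumor cells were not, so tissue and gate cannot be told apart in any comparison of tumor with dLN. All mice bore tumors, and no tumor-free animal is among these libraries. Cells stained by an intravenous anti-CD45.2 antibody, which marks cells in blood vessels, were excluded from the tumors. Libraries hold only TCRβ transcripts, so the CD4 and CD8 labels could not be checked against marker genes. LLC is a transplanted mouse lung carcinoma line.

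The CDR3 is made in the thymus when a V, a D and a J segment are cut, trimmed and joined, and terminal deoxynucleotidyl transferase adds bases that no gene encodes. It lies over the middle of the peptide held by an MHC molecule, and selection in the thymus acts on its length and residues. Sequences that need few added bases arise often and are the ones commonly found in several individuals.

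The most frequent long clone of each mouse in the CD8+ tumor repertoires is printed here, ranked by the mean of left and right, since the results follow these clones into the dLNs. Bases run from the codon of the conserved cysteine to that of the last phenylalanine, and capitals mark the bases between the end of V and the start of J, namely D and added bases.
CD8+ tumor, mouse 5 (TRBV5, TRBJ2-5): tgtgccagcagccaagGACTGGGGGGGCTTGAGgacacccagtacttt
CD8+ tumor, mouse 6 (TRBV12-2, TRBJ1-3): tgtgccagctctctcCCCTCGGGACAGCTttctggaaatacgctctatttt
CD8+ tumor, mouse 7 (TRBV2, TRBJ2-1): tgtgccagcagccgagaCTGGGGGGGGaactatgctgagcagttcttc
CD8+ tumor, mouse 8 (TRBV26, TRBJ1-4): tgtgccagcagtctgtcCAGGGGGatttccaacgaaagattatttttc

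The counterparts in the CD4+ tumor repertoires follow, also 1 for each mouse.
CD4+ tumor, mouse 5 (TRBV1, TRBJ1-3): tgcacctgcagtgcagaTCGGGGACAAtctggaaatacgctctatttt
CD4+ tumor, mouse 6 (TRBV3, TRBJ2-3): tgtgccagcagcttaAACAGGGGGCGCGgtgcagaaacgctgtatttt
CD4+ tumor, mouse 7 (TRBV1, TRBJ1-3): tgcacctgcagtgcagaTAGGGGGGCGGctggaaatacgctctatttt
CD4+ tumor, mouse 8 (TRBV13-3, TRBJ1-4): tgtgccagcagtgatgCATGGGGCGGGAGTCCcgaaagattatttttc

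The contrasting set is the long CDR3s that were found in all 4 mice as the same V, J and amino acid sequence, ranked by their frequency in the mouse where they were rarest. For the 3 highest in the CD8+ tumors, the nucleotide version present in the most mice is given.
Shared CD8+ tumor clone 1 (TRBV12-2, TRBJ2-2): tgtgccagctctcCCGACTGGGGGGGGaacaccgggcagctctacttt
Shared CD8+ tumor clone 2 (TRBV12-2, TRBJ2-2): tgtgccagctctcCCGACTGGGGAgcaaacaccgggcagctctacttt
Shared CD8+ tumor clone 3 (TRBV12-2, TRBJ2-2): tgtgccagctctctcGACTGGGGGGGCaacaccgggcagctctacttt

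The D segments of the GRCm38 annotation (GENCODE M21) are printed for reference, with all bases in capitals. TRBD1, 12 bases, lies at chr6:41533201-41533212 and TRBD2, 14 bases, at chr6:41542163-41542176, both on the plus strand.
TRBD1: GGGACAGGGGGC
TRBD2: GGGACTGGGGGGGC

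The depth of the drawn libraries ranged from 131070 to 2035380 reads, and each held between 386 and 6252 long clones. A value of a mouse is the mean of its left and right repertoires, with the fragments of a tumor summed, and is given as mean ± SD over 4 mice. Comparisons used the exact permutation test over all 70 splits of 4 and 4 mouse values, two-sided, whose smallest p is 0.0286, so a p of 0.0286 means that the groups did not overlap. Of 34 such tests, 23 had an exact p under 0.05. The p-values measure the spread between these 4 mice. The test treats the 4 and 4 values as independent, although the same mice gave both. A paired test over 16 sign changes has a smallest p of 0.125, so it could call none of them. The left dLN of mouse 5 and the right dLN of mouse 8 stood apart among the CD8+ libraries, with 84 long clones in common, against 14 to 40 in the other pairs of CD8+ dLNs from different mice. The differences in sharing between mice in CD8+ dLNs are therefore given with and without the clones common to this pair.

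Long clones were more numerous among the distinct clones of tumors than of dLNs, in both subsets, but held fewer reads in CD8+ tumors than in CD8+ dLNs. In CD8+ tumors, 14% ± 0.105 of clones were long (SD, n = 4), with 14, 14.1, 13.9 and 14.1% in mice 5 to 8. In CD8+ dLNs the share was 12.2% ± 0.330 (SD, n = 4), with 11.9, 12, 12.3 and 12.6%. The groups did not overlap, with a difference of 1.80 percentage points (exact p = 0.0286, Benjamini-Hochberg adjusted over 8 share tests 0.0381).

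For CD4+ T cells, 12% ± 0.661 of the tumor clones were long (SD, n = 4), with 11.1, 12.6, 12.3 and 12% in mice 5 to 8. The CD4+ dLNs had the lowest share, 9.08% ± 0.381 (SD, n = 4), with 8.73, 9.43, 9.39 and 8.77%. Every tumor value was above every dLN value, by 2.92 percentage points on average (exact p = 0.0286, adjusted 0.0381). CD8+ repertoires held more long clones than CD4+ repertoires in the tumor, by 2.01 percentage points, and in the dLN, by 3.13 percentage points (exact p = 0.0286 and adjusted 0.0381 for both). The tumor minus dLN difference itself was smaller in CD8+ than in CD4+ T cells, by -1.12 percentage points (exact p = 0.0286, adjusted over 2 tests 0.0571). This difference was -0.385 with an exact p of 0.0857 when long was set at 17 or more residues.

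The reads gave another order, in which the CD8+ tumors, the highest group by clones, had the lowest mean, although their difference from the CD4+ tumors did not pass the test. Of the reads of CD8+ tumors, 7.23% ± 1.94 were in long clones (SD, n = 4), with 6.50, 4.85, 9.21 and 8.35% in mice 5 to 8. In CD8+ dLNs the share of reads was 11.8% ± 0.149 (SD, n = 4), with 11.7, 11.7, 11.9 and 12%. The tumor values lay below all dLN values, by 4.62 percentage points on average (exact p = 0.0286, adjusted 0.0381), and their spread between mice was far wider. At 17 or more residues the difference was -0.527 percentage points (exact p = 0.0286), so most of it came from clones of 16 residues, with 5.10% of tumor and 9.19% of dLN reads. Reads of a clone follow both its cells and the TCR transcripts per cell, which cannot be told apart here.

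In CD4+ tumors, long clones held 8.20% ± 1.24 of reads (SD, n = 4), with 8.41, 9.49, 6.50 and 8.39% in mice 5 to 8. CD4+ dLNs had 9.06% ± 0.485 (SD, n = 4), with 8.67, 9.43, 9.53 and 8.62%, and the groups overlapped (difference -0.864 percentage points, exact p = 0.171, and -0.142 without mouse 7). The difference between CD8+ and CD4+ tumors was also within the spread between mice, at -0.972 (exact p = 0.343), which was 0.250 without mouse 6 and 0.574 at 17 or more residues (exact p = 0.0286). In dLNs, CD8+ reads were above CD4+ reads by 2.78 percentage points (exact p = 0.0286, adjusted 0.0381). The test of whether the tumor minus dLN difference of reads itself differed between subsets gave -3.75 percentage points with an exact p of 0.0571, and -4.77 with an exact p of 0.0286 when the most frequent long clone of each repertoire was left out.

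**Figure D1:**
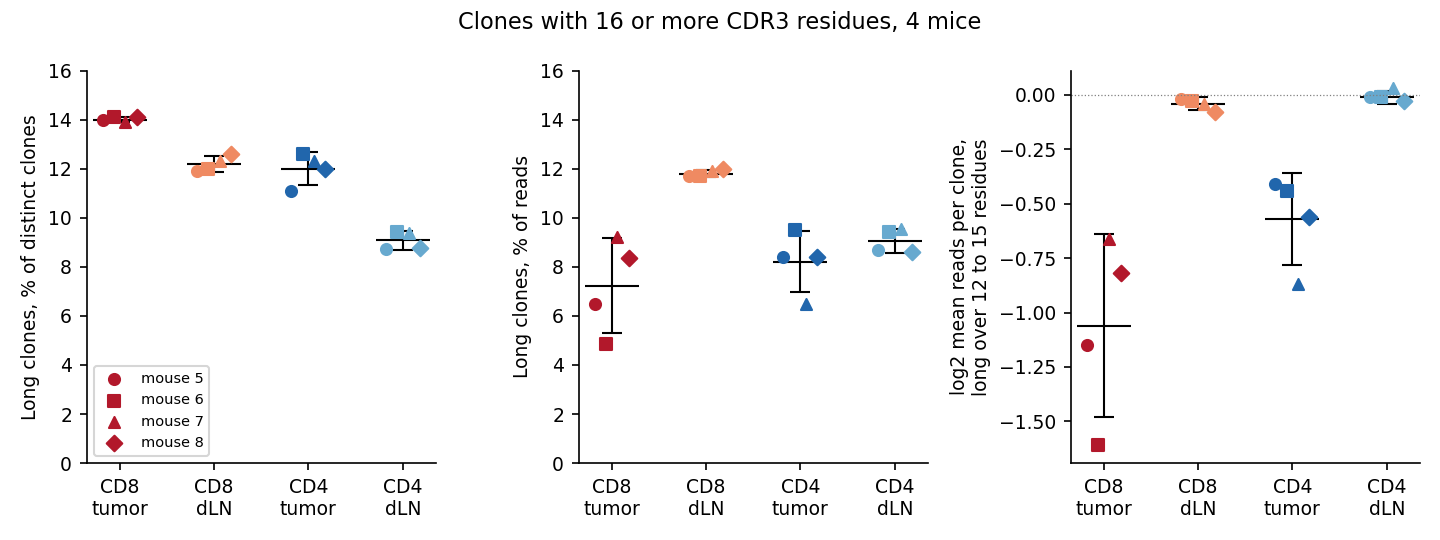
Share of long clones among distinct clones (left, %), among reads (middle, %), and the log2 ratio of mean reads per long clone to mean reads per clone of 12 to 15 residues (right) in the 4 groups; each point is 1 mouse, and bars show mean ± SD over 4 mice. CD8+ tumors were highest by clones (13.9 to 14.1%) and had mice as low as 4.85% by reads.

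The difference between both ways of counting was measured as the ratio of mean reads per clone, long over 12 to 15 residues in the same repertoire. In CD8+ tumors the log2 ratio was -1.06 ± 0.42 (SD, n = 4), from -1.61 in mouse 6 to -0.66 in mouse 7. Mean reads per long clone were thus 2.16 ± 0.660 times lower than per clone of 12 to 15 residues. The most frequent clones weigh heavily on such means, so the ratio does not give the size of a typical clone. The log2 ratio in CD4+ tumors was -0.57 ± 0.21 (SD, n = 4), or 1.50 ± 0.229 times fewer reads. In the dLNs long clones were of nearly the same size as the others, with log2 ratios of -0.04 ± 0.03 in CD8+ and -0.01 ± 0.03 in CD4+ T cells. Tumor and dLN differed in CD8+ (log2 difference -1.02) and in CD4+ T cells (-0.56), both with an exact p of 0.0286 and an adjusted p over 4 tests of 0.0571. The differences between the subsets did not pass the test within tumors (-0.49, exact p = 0.0857, with -0.27 without mouse 6 and -0.73 without mouse 7) or dLNs (-0.04, exact p = 0.0571), and the dLN difference passed, at -0.07, when left and right were joined.

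The boundary of 16 residues falls on the downward slope of the length distribution. In CD8+ tumors, 23.6% ± 0.211 of clones had 15 residues, just outside, and 10.5% ± 0.0625 had 16, just inside (SD, n = 4). Their reads were 31.7% ± 11.3 at 15 residues and 5.10% ± 1.96 at 16 residues. Among long clones, 16 residues made up 74.9% ± 0.318 in CD8+ tumors, 77.1% ± 0.0807 in CD8+ dLNs, 73.9% ± 1.77 in CD4+ tumors and 77.5% ± 0.794 in CD4+ dLNs. Those with 19 or more residues were between 0.593% and 0.891% of long clones in the 4 groups, and the longest CDR3 had 28 residues, in a CD8+ dLN.

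**Figure D2:**
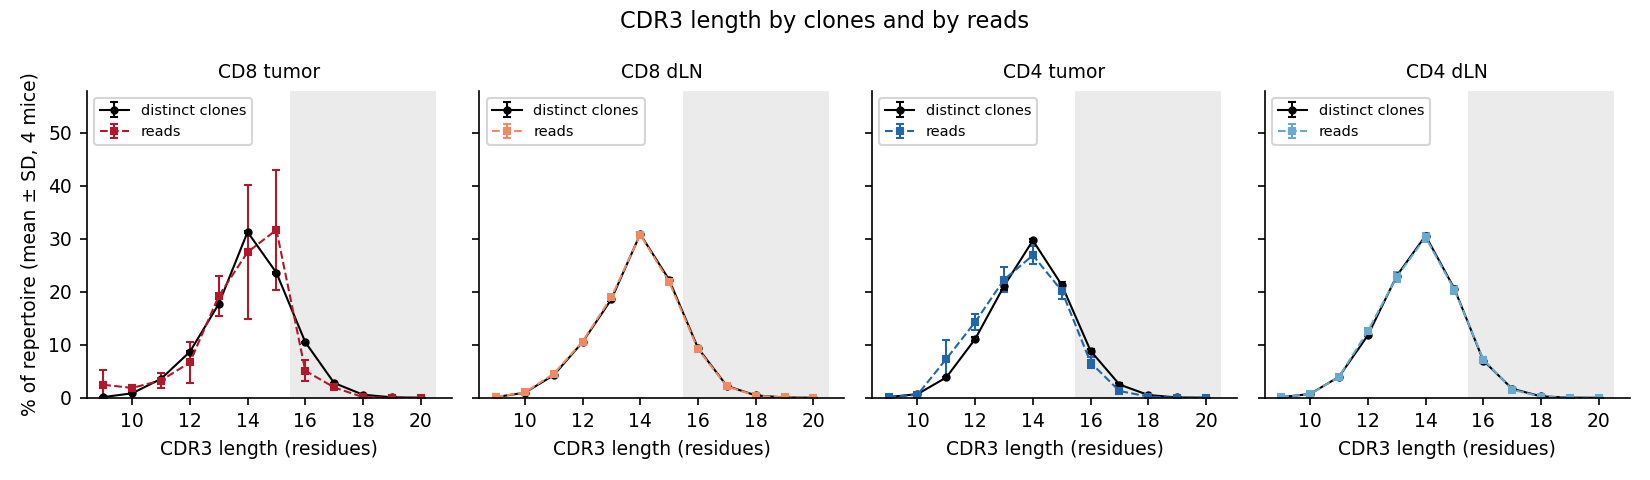
Percentage of distinct clones (solid line) and of reads (dashed line) by CDR3 length in residues, mean ± SD over 4 mice, with the long clones shaded. The lines run together in dLNs, while in CD8+ tumors the reads at 16 residues (5.10%) were below the clones (10.5%).

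The bases that made these CDR3s long came from all 3 parts of the sequence, chiefly from the stretch between V and J. These values describe the length that defined the clones and were not tested. Long clones had 13.8 ± 0.0145 bases between V and J in CD8+ tumors against 9.67 ± 0.0546 in clones of 12 to 15 residues (SD, n = 4), and the difference was between 4.12 and 4.61 bases over the 4 groups. J contributed 2.12 to 2.43 more bases and V 0.787 to 1.01 more. The D segment called by the aligner was TRBD2, the longer of the pair printed above, in 64.3% ± 0.936 of long clones in CD8+ tumors against 35.9% ± 0.438 of clones with 12 to 15 residues. In CD4+ tumors, TRBD2 was called in 55.6% ± 1.41 of long clones against 29.1% ± 0.334. TRBD2 lies behind the first J cluster and is joined to the second, TRBJ2, yet among clones with a TRBJ1 segment it was called in 5.11 to 6.28% of the long and 5.17 to 5.69% of the others over the 4 groups, so some D calls are uncertain in both classes. TRBJ2 segments were used by 79.3% ± 0.518 of long clones and 68.6% ± 0.517 of the others in CD8+ tumors, and by 72.6% ± 1.37 and 63.7% ± 0.294 in CD4+ tumors. No D segment was called in 3.88 to 4.78% of long clones and in 20.9 to 25.8% of clones with 12 to 15 residues. The TRBD2 shares are over all clones, called or not, so the higher rate of calls among long clones enters their difference.

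J usage of long clones differed in the same direction in all 4 groups for 8 of 12 segments. Usage is the percentage of distinct clones with a segment, compared between long clones and clones of 12 to 15 residues and called at a Benjamini-Hochberg adjusted p under 0.05 within a group. In CD8+ tumors, 6 J segments were higher (50.0% of the 12 tested) and 4 lower (33.3%), and the CD8+ dLNs had the same numbers, 6 (50.0%) and 4 (33.3%). In CD4+ tumors 5 were higher (41.7%) and 3 lower (25.0%), and in CD4+ dLNs 6 were higher (50.0%) and 5 lower (41.7%). Higher in all groups were TRBJ2-1, TRBJ2-2, TRBJ2-3, TRBJ2-4 and TRBJ1-6, and lower in all groups were TRBJ1-1, TRBJ1-2 and TRBJ2-7.

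The J segments with the largest differences are printed with the bases that fall inside the CDR3 in capitals, and lie on the plus strand of GRCm38 at chr6:41543810-41543856 (TRBJ2-7), chr6:41543223-41543271 (TRBJ2-3), chr6:41533864-41533911 (TRBJ1-1) and chr6:41542957-41543007 (TRBJ2-2).
TRBJ2-7: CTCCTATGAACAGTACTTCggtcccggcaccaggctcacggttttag
TRBJ1-1: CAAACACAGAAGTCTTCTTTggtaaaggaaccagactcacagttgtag
TRBJ2-3: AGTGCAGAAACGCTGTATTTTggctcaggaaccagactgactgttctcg
TRBJ2-2: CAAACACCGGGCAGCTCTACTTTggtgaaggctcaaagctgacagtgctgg

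TRBJ2-7, the J segment with the most clones in these repertoires, had the largest difference in percentage points. It was used by 6.98% ± 0.599 of long clones and 23.5% ± 0.412 of clones with 12 to 15 residues in CD8+ tumors (SD, n = 4; lower in 4 of 4 mice; exact p = 0.0286, adjusted 0.0343). In CD4+ dLNs it was used by 6.78% ± 0.655 and 19.1% ± 0.301 (exact p = 0.0286, adjusted 0.0312). TRBJ1-1 followed, with 2.13% ± 0.290 against 9.72% ± 0.147 in CD8+ tumors and 2.74% ± 0.152 against 10.1% ± 0.163 in CD4+ dLNs. In the opposite direction, TRBJ2-3 was used by 18.6% ± 0.381 of long clones against 6.99% ± 0.0741 in CD8+ tumors and by 14.4% ± 0.561 against 7.45% ± 0.344 in CD4+ tumors. TRBJ2-2 was used by 11.2% ± 0.403 against 4.76% ± 0.133 in CD8+ tumors and by 13.2% ± 0.906 against 5.57% ± 0.148 in CD4+ dLNs. Counted by segment, 30.9% ± 0.576 of the TRBJ2-3 clones but 4.40% ± 0.326 of the TRBJ2-7 clones of CD8+ tumors were long.

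The germline length of J inside the CDR3 is set beside these shares, and whether it bears on them was not tested. TRBJ2-7 has 19 such bases, the fewest of the 12 segments, TRBJ1-1 and TRBJ1-2 have 20, and TRBJ1-6 has 25. TRBJ2-3, TRBJ2-4 and TRBJ2-5 all have 21, and the long share of their clones, averaged over the 4 groups, was 24.3%, 17% and 11.7%. Over the 12 J segments, the Pearson correlation of germline bases with the long share was between 0.535 and 0.633 in the 4 groups, a description over segments that share libraries.

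V usage of long clones also differed, with 7 V segments higher (35.0% of the 20 tested) and 12 lower (60.0%) in CD8+ tumors. In CD8+ dLNs 6 were higher (30.0% of 20) and 10 lower (50.0%), and in CD4+ dLNs 6 were higher (28.6% of 21) and 10 lower (47.6%). In CD4+ tumors none was called (0% in either direction), since 12 of 21 segments had an exact p of 0.0286, which gives an adjusted p of 0.05 and would pass with 13. With the reads as deposited, or with an equal number of reads per library, 13 were called. Calls therefore depend on how many other segments differ. TRBV1, TRBV2, TRBV5 and TRBV13-2 were higher in the 3 groups with calls, and TRBV14, TRBV15, TRBV19, TRBV20, TRBV26, TRBV31 and TRBV13-3 were lower in those 3.

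TRBV5, at chr6:41062332-41062803 (GRCm38, plus strand), had the largest difference averaged over the groups. It was used by 7.96% ± 0.208 of long clones against 4.60% ± 0.175 of clones with 12 to 15 residues in CD8+ tumors (adjusted over 20 segments, exact permutation p = 0.0301). In CD4+ dLNs the usage was 16.9% ± 0.756 against 7.91% ± 0.132 (adjusted exact permutation p = 0.0375), the largest V difference of any group. TRBV1, at chr6:40891229-40891885, was used by 8.03% ± 0.374 against 5.05% ± 0.210 in CD8+ tumors and by 11.8% ± 0.326 against 7.69% ± 0.184 in CD4+ dLNs. TRBV13-2, at chr6:41121396-41121832, was used by 8.72% ± 0.149 against 8.21% ± 0.161 in CD8+ tumors, a small difference, and by 15% ± 0.756 against 11.1% ± 0.259 in CD4+ dLNs. In CD4+ tumors, where no V segment was called, the TRBV13-2 values were 23.3% ± 2.41 and 16.8% ± 1.09.

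Among the V segments that long clones used less, TRBV20 at chr6:41188273-41188977 had the largest difference averaged over the 4 groups, although single groups had larger ones, such as TRBV29 in CD8+ tumors (-2.15 percentage points against -1.35 for TRBV20) and TRBV3 in CD4+ dLNs (-3.89 against -3.50). TRBV20 was used by 0.540% ± 0.0874 of long clones against 1.89% ± 0.0497 in CD8+ tumors, and by 1.08% ± 0.230 against 4.58% ± 0.183 in CD4+ dLNs. Of all TRBV20 clones, 2.16 to 4.05% were long in the 4 groups, against 18.1 to 22.6% of TRBV5 clones. TRBV20 encodes 14 bases of the CDR3, and TRBV5 and TRBV1 encode 17. TRBV15 and TRBV26 also encode 17 and were long in 7.30% and 7.22% of clones averaged over the groups. Whether germline length bears on these shares was not tested. Over 22 V segments, the Pearson correlation of germline CDR3 bases with the long share was between 0.299 and 0.433 in the 4 groups, again a description over segments that share libraries. TRBV19, at chr6:41178375-41179048, was used by 3.48% ± 0.131 against 5.15% ± 0.172 in CD8+ tumors and 4.76% ± 0.353 against 6.50% ± 0.230 in CD4+ dLNs.

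**Figure D3:**
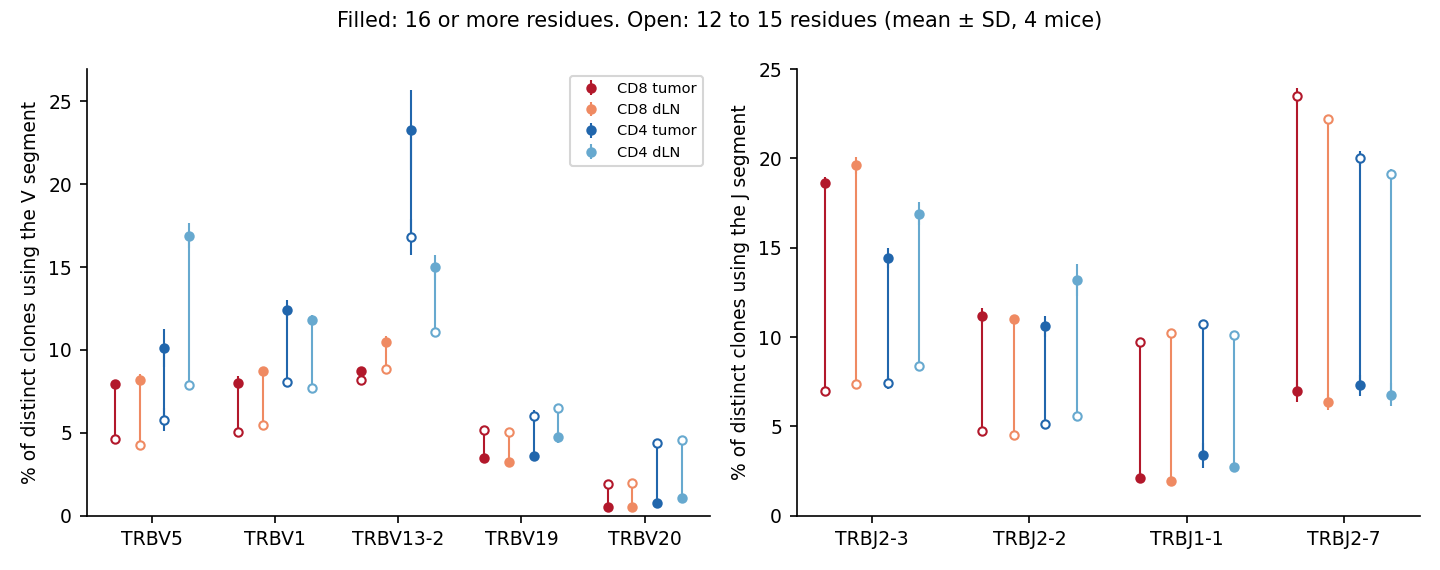
Usage (% of distinct clones) of the 5 V segments (left) and 4 J segments (right) with the largest differences, in long clones (filled) and clones of 12 to 15 residues (open), mean ± SD over 4 mice in each group. TRBJ2-7 dropped from 23.5 to 6.98% in CD8+ tumors, and the CD4+ tumor V differences did not pass the adjusted threshold, except with the reads as deposited or at equal depth, where 13 segments were called.

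Usage weighted by reads was less even between mice in tumors. With reads in place of clones, no V segment was called in CD8+ tumors (3 of 19 at an unadjusted exact permutation p under 0.05) and none in CD4+ tumors (6 of 20), and no J segment in CD8+ tumors (2 of 12) or CD4+ tumors (5 of 12). In CD8+ and CD4+ dLNs 16 and 12 V segments were called. TRBV5 in CD8+ tumors had a read difference of -1.78 percentage points, the opposite sign of its clone difference, with an adjusted exact permutation p of 0.814.

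The middle of the CDR3, the residues after the first 4 and before the last 5, had a different composition in long clones. Alanine, glycine, tryptophan and tyrosine were more frequent in all 4 groups, and asparagine, glutamine, glutamic acid, isoleucine and methionine less frequent. Of 20 amino acids, 5 (25.0%) were higher and 12 (60.0%) lower in CD8+ tumors, 5 (25.0%) and 11 (55.0%) in CD8+ dLNs, 5 (25.0%) and 9 (45.0%) in CD4+ tumors, and 6 (30.0%) and 8 (40.0%) in CD4+ dLNs. Alanine, a small nonpolar residue, took 8.00% ± 0.115 of these positions in long clones against 6.39% ± 0.0490 in CD8+ tumors (exact p = 0.0286, adjusted 0.0336). Glycine, which the guanine runs of both D segments encode in part, took 24.6% ± 0.178 against 24% ± 0.0470 in CD8+ tumors and 27.8% ± 0.602 against 25.0% ± 0.175 in CD4+ dLNs. Tryptophan, the large aromatic residue that TRBD2 can encode, took 4.94% ± 0.0407 against 4.38% ± 0.0957 in CD8+ tumors and 2.98% ± 0.106 against 2.45% ± 0.0934 in CD4+ dLNs. Asparagine fell from 7.18% ± 0.0788 to 5.65% ± 0.262 in CD4+ dLNs (exact p = 0.0286, adjusted 0.0408). The middle reaches further into J in the longer J segments, so J usage and this composition are not separate measures. It also covers more residues in a longer CDR3, so the composition is not independent of the length that defined the clones.

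No long clone was among the 10 most frequent clones of any tumor repertoire. The top 10 clones of 8 CD8+ tumor repertoires, left and right of each mouse, included 0 long clones of 80, which allows a share of up to 3.75%, and the same was found for CD4+ tumors, again 0 of 80. These intervals cover counting error only, and left and right tumors of a mouse had many clones in common. In dLNs, 7 of 80 top clones were long in CD8+ and 6 of 80 in CD4+ T cells. The best rank of a long clone lay between 11 and 23 in CD8+ tumors and between 13 and 41 in CD4+ tumors, whereas a long clone was the most frequent of all in 2 CD8+ dLNs and 1 CD4+ dLN. The limit of 10 clones was chosen after the values were seen, so the absence of long clones from these ranks is a description without a test.

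Over the 100 most frequent clones the result depended on the group. In CD4+ tumors, 6.62% ± 1.44 of them were long (SD, n = 4), with 7, 5.50, 5.50 and 8.50% in mice 5 to 8, below the 12% of all clones in every mouse (exact p = 0.0286, adjusted over 4 tests 0.0571). In CD8+ dLNs it was 9.88% ± 1.31 against 12.2% (exact p = 0.0286, adjusted 0.0571), and the p was 0.0571 by the exact test with the reads as deposited. In CD8+ tumors the share was 11% ± 2.27 against 14% and the groups overlapped (exact p = 0.0857), since mouse 7 had 14% in its top 100. With the 20 and the 1000 most frequent clones, the CD8+ tumor differences were -5.88 and -2.83 percentage points, each with an exact p of 0.0286, while the CD8+ dLN difference was -3.46 with the 20 most frequent clones and did not pass (exact p = 0.114). In CD4+ dLNs the top 100 held 10.1% ± 1.65 against 9.08% (exact p = 0.314). Clones above 1% of a repertoire were long in 7 of 137 cases in CD8+ tumors and in 0 of 27 in CD4+ tumors, again with left and right counted separately.

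**Figure D4:**
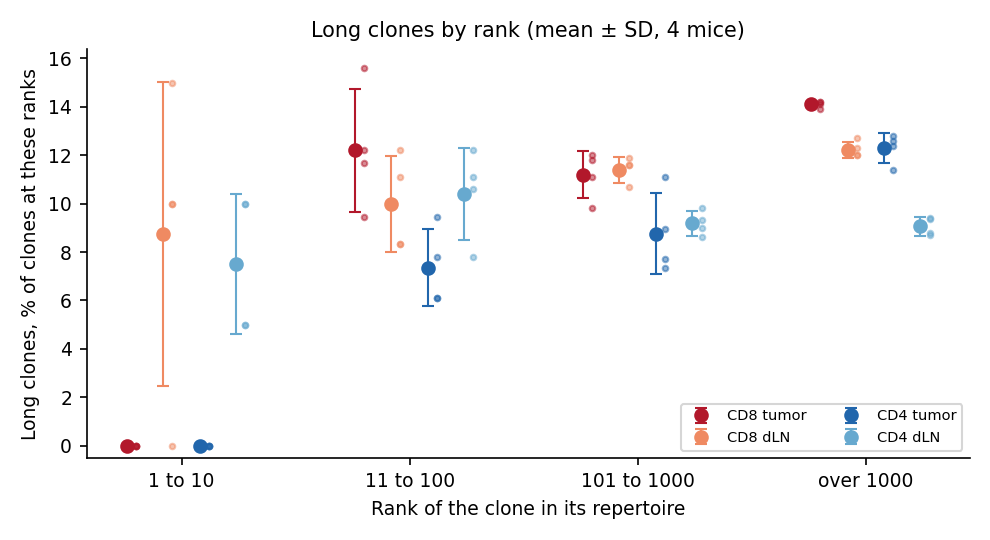
Percentage of long clones among clones of a given rank in their repertoire, mean ± SD over 4 mice (large points) and single mice (small points). Both tumor groups were at 0 for ranks 1 to 10, and CD8+ tumors were at 14.1% beyond rank 1000.

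The leading long clone of each mouse in CD8+ tumors, by the mean of both sides, was found on both sides, with a higher value on the left in each mouse. The intervals given cover counting error only and not the spread between tumors or fragments, so this difference between sides has no test. The TRBV26 and TRBJ1-4 clone of mouse 8 had 1.86% of the left tumor repertoire (95% Wilson interval 1.82 to 1.90, on estimated cells) and 1.50% of the right one (1.46 to 1.53), at ranks 11 and 16. In the dLNs of mouse 8 it had 0.0314% and 0.0364%. The TRBV5 and TRBJ2-5 clone of mouse 5 had 1.29% and 0.954% of the tumors, and with 0.149% and 0.0875% it was also the most frequent long clone of the dLNs and the most frequent of all clones in the right dLN. The TRBV12-2 and TRBJ1-3 clone of mouse 6, with 17 residues, had 1.37% and 0.842% in the tumors, 0.00387% in the left dLN and 0 reads in the right one, which allows up to 0.00440% on estimated cells. The TRBV2 and TRBJ2-1 clone of mouse 7 had 0.932% and 0.830% in the tumors but 1 read (0.000275%) in the left dLN and 13 reads (0.00243%) in the right one. Both dLN values of mouse 7 lay below the limit of 3 estimated cells (0.00495% and 0.00337%), and the left one of mouse 6 was at it. These 4 clones were also found at up to 0.00249% in the other subset, CD4+, so dLN values of this size are uncertain. The clones of mice 5 and 8 were thus above the limit of 3 estimated cells in both dLNs, and those of mice 6 and 7 in neither. Their bases between V and J ranged from 7 in mouse 8 to 17 in mouse 5.

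In CD4+ tumors the leading long clones had mean frequencies of 0.277 to 0.439%, and each was found on both sides and in both dLNs of its mouse. The TRBV1 and TRBJ1-3 clone of mouse 5 had 0.327% and 0.552% in the tumors and 0.249% and 0.289% in the dLNs, where it was again the leading long clone. A second TRBV1 and TRBJ1-3 clone led in mouse 7, with 0.219% and 0.423%, and the printed sequences of both differ between V and J. In dLNs, the leading long clones reached 0.529% in CD4+ T cells, for a TRBV5 and TRBJ1-2 clone of mouse 8, and 0.134% in CD8+ T cells, for a TRBV17 and TRBJ2-7 clone of mouse 6. The leading CD8+ dLN clone of mouse 7, TRBV1 and TRBJ2-1, had 0.0396% on the left at rank 18 and 0.00468% on the right at rank 4305. The leading clones of CD8+ dLNs were thus uneven between sides in mouse 7, and in mouse 8 (0.120% and 0.0179%).

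Tumor clones were traced to the dLNs of the same mouse as a description. Clones also present in a dLN held 50.2% ± 15.6 of the long reads of CD8+ tumors and 72.6% ± 12.7 of the reads of clones with 12 to 15 residues (SD, n = 4), and the long value was lower in each of the 4 mice. The long value was 43.7% in mouse 6 and 31.1% in mouse 7. The leading long clones of these mice, at or below 3 estimated cells in the dLNs, alone held 22.9% and 9.56% of the long reads. How far the values rest on such clones was not tested. In CD4+ tumors the values were 61.3% ± 2.91 and 70.7% ± 2.15, again lower for long clones in each mouse. By clones, 3.58% ± 0.532 of the long and 7.26% ± 0.901 of the other CD8+ tumor clones were found in the dLN.

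Presence on both sides of a mouse was less common for long clones in CD8+ dLNs and CD4+ tumors. In CD4+ tumors, 18.2% ± 0.408 of long clones and 24.2% ± 0.618 of clones with 12 to 15 residues were found on both sides, and these held 75.5% ± 0.785 and 84.8% ± 2.55 of their reads (SD, n = 4). In CD8+ dLNs the clone values were 1.66% ± 0.0723 and 3.22% ± 0.351, and the read values 5.64% ± 0.417 and 9.58% ± 0.867. All 4 of these differences had an exact p of 0.0286, with an adjusted p over 8 tests of 0.0571. In CD8+ tumors, clones on both sides held 65.2% ± 9.15 of the long reads and 83.2% ± 6.12 of the others, lower in 4 of 4 mice but overlapping between mice (exact p = 0.0571). In CD4+ dLNs the clone values were 10.9% ± 0.229 and 10.7% ± 0.554 (exact p = 0.486) and the read values 48.6% ± 2.43 and 47.8% ± 1.94 (exact p = 0.600).

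Sharing between mice was lower for long clones than for clones of 12 to 15 residues in all 4 groups. A clone of a mouse was counted as shared when it was found in at least 1 of the other 3 mice of the group. By nucleotide sequence, 2.42% ± 0.471 of the long clones of CD8+ tumors were shared against 8.86% ± 1.83 of the others (SD, n = 4), a ratio of 3.66 ± 0.178. In CD8+ dLNs the values were 2.43% ± 0.480 and 8.91% ± 0.605. In CD4+ tumors they were 0.737% ± 0.209 and 3.85% ± 0.398, and in CD4+ dLNs 0.807% ± 0.171 and 4.74% ± 0.322, where the ratio was the largest of the 4 groups, 6.06 ± 1.25. Each of the differences had an exact p of 0.0286, also after adjustment over 8 tests, and values of the 4 mice depend on each other because each is compared with the other 3.

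Sharing by V, J and amino acid sequence was more common and kept the same order. In CD8+ tumors 8.33% ± 1.65 of long clones and 22.3% ± 4.24 of the others were shared, and in CD8+ dLNs 8.20% ± 0.742 and 22.4% ± 0.969. In CD4+ tumors it was 3.77% ± 0.799 and 12.2% ± 1.62, and in CD4+ dLNs 3.90% ± 0.376 and 15% ± 0.917 (exact p = 0.0286 in each group). Without the clones common to the pair of CD8+ dLNs that stood apart, the CD8+ dLN differences were -6.04 by nucleotides and -14.0 by amino acids, against -6.48 and -14.2 with them (exact p = 0.0286 for each). Without mouse 7, the nucleotide difference was -4.20 in CD8+ tumors against -6.44 with all mice and -1.87 in CD4+ tumors against -3.11, and by amino acids it was -5.61 in CD4+ tumors against -8.43, with 1 mouse fewer to share with.

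**Figure D5:**
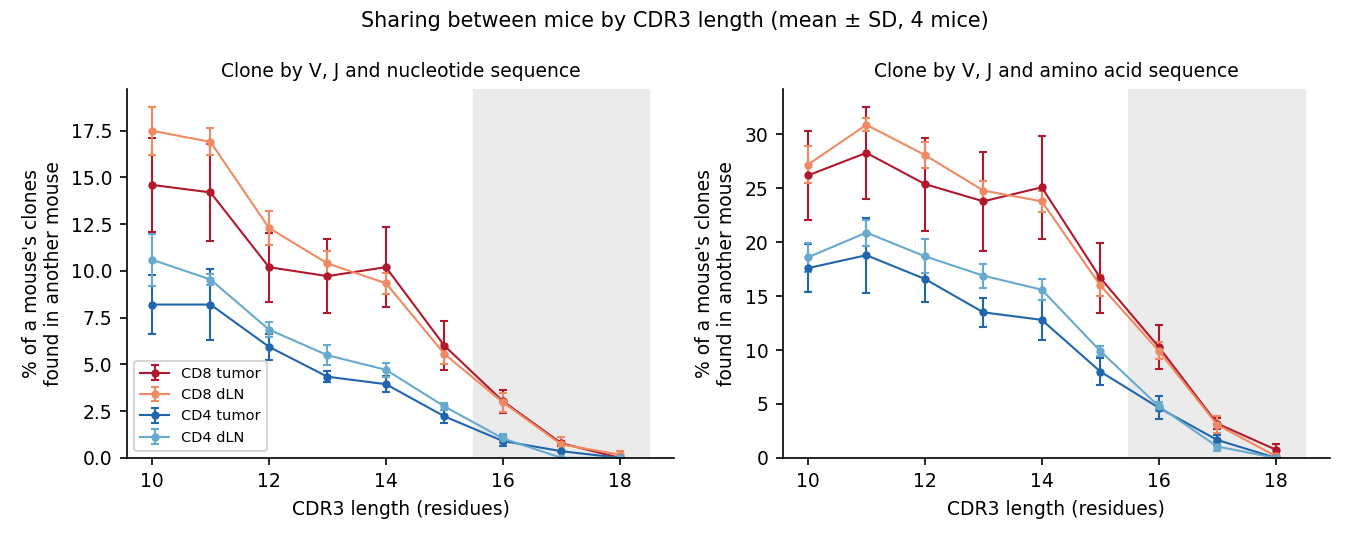
Percentage of a mouse's clones found in another mouse of the group by CDR3 length in residues, for clones defined by nucleotide (left) and amino acid (right) sequence, mean ± SD over 4 mice, with long clones shaded. By amino acids, CD8+ tumor clones went from 16.7% at 15 residues to 10.3% at 16 and 3.18% at 17.

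Shared long clones had shorter stretches between V and J than other long clones, as did shared clones of 12 to 15 residues. In CD8+ tumors it was 11.8 ± 0.100 bases in long clones found in another mouse and 13.9 ± 0.0160 in those found in 1 mouse, and in CD4+ tumors 12.2 ± 0.386 and 13.8 ± 0.0781 (SD, n = 4, not tested). For clones of 12 to 15 residues the means were 7.94 and 9.87 bases in CD8+ tumors, and 6.23 and 9.33 in CD4+ tumors. Long clones found in all 4 mice, by amino acids, numbered 59 of 42520 distinct clones in CD8+ tumors, 44 of 32144 in CD8+ dLNs, 2 of 9995 in CD4+ tumors and 3 of 9331 in CD4+ dLNs. These were 0.139, 0.137, 0.0200 and 0.0322% in that order, against 0.659, 0.831, 0.182 and 0.281% of clones with 12 to 15 residues. All 3 CD8+ tumor examples printed above use TRBV12-2, TRBJ2-2 and TRBD2. They were rare, with 0.000975 to 0.00571% of a mouse's reads, and were encoded by 17, 16 and 12 different nucleotide sequences over the 4 mice. The 3 highest in CD4+ dLNs all use TRBV13-2, and the first of these, with TRBJ2-1, had 0.0114 to 0.0454% of reads in the 4 mice. Of the leading long clones of tumors, none of the 4 in CD4+ T cells was found as the same nucleotide sequence in another mouse of the group. In CD8+ T cells, those of mice 5 and 7 were each found in mouse 8, with at most 0.000727% of reads.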

How the data were processed

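TCRβ libraries without molecular identifiers were sequenced from 48 samples. The authors trimmed reads with Cutadapt 3.2, filtered them with PRINSEQ, aligned them to IMGT segments and built clones of productive sequences with MiXCR. Each clone has a deposited read count and a deposited fraction, which is that count over the library's total. The positions of V, D and J ends in the CDR3 are those of the deposited files. Clones are V, J and CDR3 nucleotide sequence.

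Deposited counts were those before down-sampling (326582 to 4840722 reads), so each library was drawn without replacement (seed 1) to 6 reads per sorted cell, with the cell numbers of the study. The mouse was the replicate. Left and right samples carry the same mouse number in the labels, and their long shares deviated together from the group means (r = 0.919 by reads and 0.787 by clones, 16 left and right pairs). Two-sided exact permutation tests ran over 70 splits, called at p under 0.05. V and J segments with at least 0.5% of clones and amino acids were called after Benjamini-Hochberg adjustment within a group. The permutation tests and the comparison of segment usage were tested on simulated data.

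Named were the leading long clone of each mouse and group, the 3 leading clones found in all 4 mice, and the 5 V and 4 J segments that differed most. The members, lists and tests were chosen with earlier results of these data known. Alternatives were the reads as deposited, equal depth, a minimum of 4 reads, removal of a clone from a mouse where it was 100 or more times rarer than in another, other length limits, clone definitions and rank limits, and leaving out each mouse. A second seed, the 10 most frequent clones and the removal of the clones that 2 dLNs of different mice had in common were added after seeing the data. Segment coordinates, germline D and J sequences and germline base counts are from GENCODE M21 on GRCm38. Genome builds are not part of the deposited clone files. Software was matplotlib 3.10.9, scipy 1.17.1, pandas 2.3.3, numpy 2.4.6 and Python 3.11.15.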

Additional observations from a re-analysis of the deposited data

Results flagged for a closer look

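The tumor minus dLN difference in the long share of clones was set out for a closer look because it differed between the subsets by its own test. It was 1.80 ± 0.319 percentage points in CD8+ and 2.92 ± 0.413 in CD4+ T cells (SD, n = 4 mice), and the difference of -1.12 had an exact permutation p of 0.0286 and an adjusted p of 0.0571. In 32 sets of 4 mouse values that were examined for a single mouse far from the other 3, none was found, where chance alone gives about 1 in 20.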

How the results depend on the processing

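Of the 23 results called by the exact permutation test over splits, none reversed and 21 kept their call under every alternative whose test could pass the threshold. Under the replicate block, which pairs the values of a mouse, the smallest p over 16 sign changes is 0.125, so no call was possible, and the mean differences are the same by construction (for example 1.80 percentage points for the CD8+ tumor minus dLN share of clones), so the block says nothing about stability. Leaving out a mouse allows no p under 0.05, so those values have no test, and counts of segments were not recomputed. Ranges without 1 mouse each are given for the sharing differences, which moved because fewer mice remain to share with. By nucleotides they were -5.26 to -4.20 in CD8+ tumors, -5.17 to -4.68 in CD8+ dLNs, -2.63 to -1.87 in CD4+ tumors and -3.04 to -2.76 in CD4+ dLNs, and by amino acids -12.0 to -10.1, -12.0 to -11.1, -6.98 to -5.61 and -8.88 to -8.20 in the same order.

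With the reads as deposited, the top 100 difference of CD8+ dLNs was -1.96, no longer past the threshold, and the V segments called in CD4+ tumors rose to 13, as they did at equal depth (13). At 17 or more residues, the CD8+ minus CD4+ tumor difference was 0.574 by reads and 0.24 in log2 size, that of dLNs was 0.09 in log2 size, and the difference between subsets by clones was -0.385. With left and right joined the dLN size difference was -0.07 and past the threshold, and without the most frequent long clone it was 0.00, while the difference between subsets by reads was -4.77. With the 20 most frequent clones, differences were -5.88 in CD8+ tumors, -3.46 in CD8+ dLNs, where the call was lost, and -1.58 in CD4+ dLNs, with the 1000 most frequent -2.83 in CD8+ tumors, and with the 10 most frequent, a limit chosen after seeing the values, -14.0, -3.46 (call lost) and -1.58. By reads, 0 V segments were called in CD8+ tumors, 0 J segments in CD8+ and in CD4+ tumors and 7 in CD4+ dLNs, and TRBV5 in CD8+ tumors was at -1.78. The cause of these changes was not tested.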

Other observations

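The long reads of CD8+ tumors were spread unevenly over V segments, with a different leading segment in each mouse. TRBV26 held 21.8% of the long reads in mouse 8 and 15.5% in mouse 5, but 2.01% and 1.28% in mice 6 and 7. TRBV12-2 held 29.7% in mouse 6 and 3.89 to 7.42% in the others, and TRBV5 held 20.4% in mouse 5 and 4.29 to 5.07% in the others. TRBV2 held 22.2% in mouse 7 and 4.50 to 7.97% in the others. Much of this was 1 clone in each mouse, since the leading long clone alone had 20.1% of the long reads in mouse 8 (TRBV26), 22.9% in mouse 6 (TRBV12-2), 17.3% in mouse 5 (TRBV5) and 9.56% in mouse 7 (TRBV2). In CD8+ dLNs TRBV26, TRBV12-2 and TRBV5 were more even between mice, with 1.76 to 2.09% for TRBV26, 7.52 to 8.78% for TRBV12-2 and 7.55 to 9.21% for TRBV5.

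Several nucleotide sequences for the same V, J and amino acids within a mouse were less common among long clones. In CD8+ tumors this held for 3.26% ± 0.699 of long and 6.89% ± 1.49 of clones with 12 to 15 residues (SD, n = 4), and in CD4+ dLNs for 2.47% ± 0.252 and 4.85% ± 0.369. These values were not tested.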
